A study of Mus musculus with 18 samples.

Results

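A set of 8 genes of cholesterol synthesis and its feedback control were followed through the brain of mice lacking Pcm1, the gene of a protein of the centriolar satellites. The genes were named as a list (Hmgcs1, Idi1, Fdps, Sqle, Lss, Cyp51, Dhcr7 and Insig1), and they are 8 of the 38561 genes in the count tables. All 8 were matched to 1 Ensembl gene each and all 8 were among the 17545 genes tested.

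The libraries came from adult mice of the C57 Bl6J background, either WT or homozygous for a gene-trap insertion in Pcm1 (Pcm1-/-), and the 2 genotypes were littermates. Frontal cortex, striatum and hippocampus were dissected and frozen on a single day, and each of the 6 groups held 3 libraries, 18 in all. The animal numbers in the deposited tables place the 3 regions in the same 6 animals, and a region is therefore no separate set of mice. No group was treated, and the labels give no sex for single animals.

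The first of these enzymes, Hmgcs1, makes HMG-CoA from acetyl-CoA units, Idi1 and Fdps build the isoprenoid farnesyl diphosphate, Sqle and Lss turn squalene into lanosterol, and Cyp51 and Dhcr7 carry lanosterol to cholesterol. When sterol in the endoplasmic reticulum is low, the escort protein SCAP takes the transcription factor SREBP-2 to the Golgi, where it is cleaved and then switches on these genes. Insig1 is both a target of SREBP and the anchor that holds SCAP back. The adult brain makes nearly all of its own cholesterol because lipoproteins of the blood do not cross into it; oligodendrocytes put much of it into myelin, and astrocytes pass it to neurons on apolipoprotein E.

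On the GRCm38 build, Hmgcs1 (ENSMUSG00000093930) lies at chr13:119690379-119708260, Idi1 (ENSMUSG00000058258) at chr13:8885501-8892451, Fdps (ENSMUSG00000059743) at chr3:89093588-89101959 and Sqle (ENSMUSG00000022351) at chr15:59315077-59331192. Lss (ENSMUSG00000033105) lies at chr10:76531588-76557138, Cyp51 (ENSMUSG00000001467) at chr5:4081145-4104746, Dhcr7 (ENSMUSG00000058454) at chr7:143823145-143848410 and Insig1 (ENSMUSG00000045294) at chr5:28071363-28078662. All 8 are protein-coding genes.

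The promoters are shown as a description of the genes, and their part in the levels was not tested. The RefSeq table of GRCm38.p6 holds 6 of the 8 genes, and Sqle and Fdps were not among them. The 250 bases before the annotated start are given 5′ to 3′ on the strand of the gene, with the classical sterol regulatory element (TCACNCCAC) and the CCAAT box, the binding site of NF-Y, in capitals wherever they occur on either strand. Dhcr7 has 3 windows in that table, and the window with CCAAT boxes is printed.
Hmgcs1, chr13:119690101-119690350, + strand: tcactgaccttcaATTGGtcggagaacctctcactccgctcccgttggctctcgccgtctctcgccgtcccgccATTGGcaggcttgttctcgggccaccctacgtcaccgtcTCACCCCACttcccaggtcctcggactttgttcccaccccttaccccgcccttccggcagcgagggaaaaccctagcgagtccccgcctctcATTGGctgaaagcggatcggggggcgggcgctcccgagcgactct
Idi1, chr13:8885356-8885605, + strand: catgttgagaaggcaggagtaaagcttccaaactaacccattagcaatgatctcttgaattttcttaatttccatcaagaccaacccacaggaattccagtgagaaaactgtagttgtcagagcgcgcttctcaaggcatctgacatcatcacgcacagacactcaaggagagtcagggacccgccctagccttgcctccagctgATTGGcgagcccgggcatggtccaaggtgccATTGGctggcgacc
Lss, chr10:76531355-76531604, + strand: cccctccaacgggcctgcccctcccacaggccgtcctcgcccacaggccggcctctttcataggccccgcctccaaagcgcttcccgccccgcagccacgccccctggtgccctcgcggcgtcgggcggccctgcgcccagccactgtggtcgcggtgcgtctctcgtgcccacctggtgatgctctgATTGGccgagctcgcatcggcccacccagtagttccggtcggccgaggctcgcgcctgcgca
Cyp51, chr5:4104698-4104947, - strand: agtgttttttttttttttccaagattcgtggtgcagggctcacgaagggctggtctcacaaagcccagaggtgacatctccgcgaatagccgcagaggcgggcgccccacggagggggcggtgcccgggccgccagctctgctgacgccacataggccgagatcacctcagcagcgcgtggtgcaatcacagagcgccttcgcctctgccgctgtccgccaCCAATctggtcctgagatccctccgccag
Dhcr7, chr7:143829964-143830213, + strand: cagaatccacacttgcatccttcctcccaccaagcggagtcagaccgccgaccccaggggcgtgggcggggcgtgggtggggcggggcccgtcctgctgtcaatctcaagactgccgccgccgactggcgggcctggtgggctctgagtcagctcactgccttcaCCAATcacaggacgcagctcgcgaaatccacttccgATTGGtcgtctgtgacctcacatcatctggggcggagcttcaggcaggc
Insig1, chr5:28071162-28071411, + strand: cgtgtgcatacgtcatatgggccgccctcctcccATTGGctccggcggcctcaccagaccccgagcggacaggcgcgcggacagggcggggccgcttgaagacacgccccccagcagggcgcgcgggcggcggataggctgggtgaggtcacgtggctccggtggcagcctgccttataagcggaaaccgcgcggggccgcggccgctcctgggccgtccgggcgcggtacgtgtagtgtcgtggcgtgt
In these windows, TCACNCCAC was found in Hmgcs1, as TCACCCCAC with its first base 137 bases before the start, and in 1.22% of the 27025 genes of the table. CCAAT was found in 6 of 6 genes against 37.5% of all genes, and the GC box GGGCGG in 6 of 6 against 35.4%. The E-box CACGTG was found in Insig1 and, in another of its windows, in Dhcr7, against 6.86% of all genes. Among 11 other sterol synthesis enzymes with a promoter entry, 10 held CCAAT, 10 held GGGCGG, 2 held CACGTG and 0 held TCACNCCAC. The search covered both strands, the motifs do not overlap one another, and a match to these letters is not a measured binding site.

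Each library held between 24950537 and 33405081 counts on genes, which were 86.8% to 89.2% of the counted reads. Pcm1 itself was at 119.9 to 171.7 CPM (counts scaled to library size) in the WT libraries and at 11.8 to 17.6 CPM in the Pcm1-/- libraries, so every library fitted its genotype label. Counts on 4 Y-linked genes were present in 6 libraries, those of WT animal 2 and Pcm1-/- animal 2 (animals are numbered by their frontal cortex replicate), at 113.7 to 137.0 CPM in sum, and stood at 0.184 CPM or less in the other libraries. Striatum replicate 3 of WT held choroid plexus genes at 5986 CPM in sum against 51.9 and 53.1 CPM in the other WT striatum libraries. In the hippocampus these sums ran from 2155 to 6284 CPM in WT and from 222 to 4156 CPM in Pcm1-/-. On the log2 scale, WT hippocampus replicate 1 stood 1.40 above the regional mean of these genes, and Pcm1-/- replicate 2 stood at -2.65. These libraries also had the region's lowest and highest mean of the sterol genes, at -0.337 and 0.251. Across all libraries the choroid plexus and sterol means had r = -0.147, and a link was not tested. In the striatum all WT libraries were run on lane 5 and the Pcm1-/- libraries on lanes 3 and 4, where genotype and lane cannot be told apart.

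The 8 genes differ widely in level. Divided by exon length, the WT frontal cortex held Hmgcs1 at 74.7 ± 7.26 CPM per kb (SD, n = 3), Insig1 at 22.4 ± 5.73, Cyp51 at 16.7 ± 2.11 and Sqle at 14.0 ± 1.56. Dhcr7 followed at 5.19 ± 0.103 CPM per kb, Fdps at 5.17 ± 0.744, Lss at 3.75 ± 0.568 and Idi1 at 0.278 ± 0.0712. In WT frontal cortex the range of Cyp51 overlapped those of Insig1 and Sqle, and Dhcr7 overlapped Fdps. The order was the same in all 6 groups except that Lss stood above Fdps in the striatum. Taking the longest transcript as the length put Dhcr7 above Sqle in the striatum. Idi1 rested on 12 to 44 counts in any library, and 21.3% of the 50-base stretches of its transcript also occur in annotated genes elsewhere in the genome, where reads kept only for a single position can be lost. That share was 3.65% for Fdps, 2.49% for Insig1 and at most 0.155% for the other 5 genes. Cyp51 shares 166 exon bases with Akap9 on the opposite strand, and the strand setting of the counting is not given in the sources used here.

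**Figure D1:**
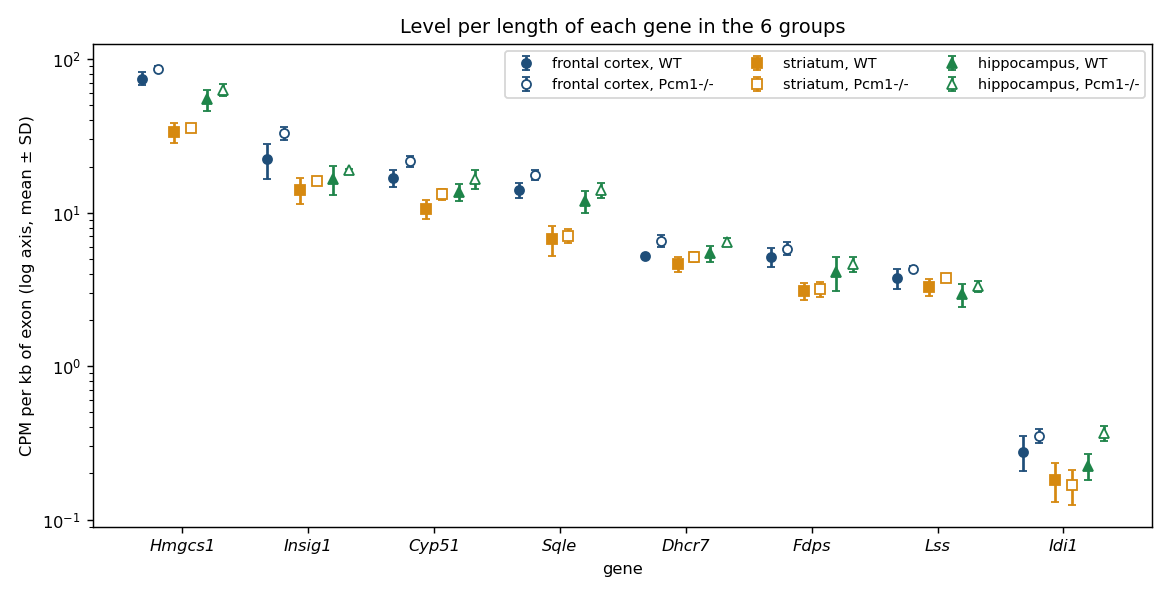
Level of each gene per kilobase of exon (CPM per kb, log axis) in the 6 groups, as mean ± SD of 3 libraries, with filled symbols for WT and open symbols for Pcm1-/-. Hmgcs1 is the highest gene in every group and Idi1 the lowest.

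The comparison of genotypes within a region asks which transcripts differ when Pcm1 is lost. In the frontal cortex all 8 genes had a higher mean in Pcm1-/- than in WT, and 5 of them did not overlap between the genotypes. None of the 8 passed the test across all genes (edgeR quasi-likelihood test, Benjamini-Hochberg adjusted p under 0.05), which 1.74% of tested genes passed. A log2 fold change above 0 was seen in 48.1% of all genes and in 8 of 8 here. Groups that do not overlap, higher in Pcm1-/-, were seen in 12% of all genes, and an unadjusted p under 0.05 with a higher level in 7.84%. The same 5 genes, Hmgcs1, Sqle, Cyp51, Dhcr7 and Insig1, met each of these last criteria.

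Of the early enzymes, Hmgcs1 stood in the frontal cortex at 312, 379 and 339 CPM in WT replicates 1 to 3 and at 413, 404 and 381 CPM in Pcm1-/- replicates 1 to 3. The lowest Pcm1-/- library lay just above the highest WT library, and the log2 fold change was 0.21 (SE 0.0742, adjusted p = 0.221). Fdps, which makes farnesyl diphosphate, was at 19.1, 25.2 and 20.98 CPM in WT and at 24.2, 27.1 and 22.5 CPM in Pcm1-/-, a log2 fold change of 0.17 (SE 0.114, adjusted p = 0.527). Its genotypes overlapped, with WT replicate 2 above 2 of the 3 Pcm1-/- libraries. Idi1, the isomerase of isopentenyl diphosphate, was at 1.19, 1.03 and 0.701 CPM in WT and at 1.29, 1.33 and 1.09 CPM in Pcm1-/-, and its log2 fold change of 0.34 had an SE of 0.237. Its genotypes overlapped too.

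Sqle, a rate-limiting enzyme of sterol synthesis that oxidises squalene, was at 68.0, 84.9 and 79.4 CPM in WT and at 103.0, 100.3 and 90.3 CPM in Pcm1-/-. The genotypes did not overlap, and the log2 fold change was 0.33 (SE 0.0872, adjusted p = 0.108). Cyp51, the lanosterol demethylase, was at 65.2, 83.7 and 72.8 CPM in WT and at 100.7, 99.1 and 86.0 CPM in Pcm1-/-. Its log2 fold change was 0.36 (SE 0.0967, adjusted p = 0.116), again with no overlap. Lss, which closes the sterol rings, was at 33.8, 45.9 and 41.6 CPM in WT and at 47.4, 47.4 and 44.4 CPM in Pcm1-/-, a log2 fold change of 0.19 (SE 0.102, adjusted p = 0.417). WT replicate 1 was low for Lss, and WT replicate 2 reached into the Pcm1-/- range.

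Dhcr7, the last reductase before cholesterol, came nearest to the threshold. It was at 29.6, 30.8 and 30.2 CPM in WT and at 40.8, 39.2 and 34.2 CPM in Pcm1-/-, a log2 fold change of 0.33 (SE 0.0751, adjusted p = 0.0729). The WT libraries lay close together, with an SD of 0.602 CPM. Insig1 had the largest fitted difference, with 51.6, 87.1 and 69.2 CPM in WT and 107.9, 108.2 and 90.2 CPM in Pcm1-/-. Its log2 fold change was 0.55 (SE 0.163, adjusted p = 0.150), and its WT libraries stood at 69.3 ± 17.7 CPM (SD, n = 3).

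Whether these genes pass the threshold in the frontal cortex depends on the method. DESeq2's Wald test called 4 of 8 (Sqle, Insig1, Cyp51 and Dhcr7, adjusted p = 0.0265, 0.0122, 0.0233 and 0.0218), against 3.68% of all genes in that test, and edgeR without a count minimum called the same 4, against 2.22%. With sequencing lane as a term within the region, 0 of 8 passed, 5 of 8 kept an unadjusted p under 0.05 (6.75% of all genes, higher in Pcm1-/-), and all 8 log2 fold changes stayed above 0, from 0.093 for Lss to 0.56 for Idi1. Lane 3 held WT replicate 1 alone in this region, so the term sets that library aside, much as leaving it out does. No omission of a single library brought a member past the threshold, and the log2 fold changes of the 8 genes stayed positive in each of these fits. Their size changed, to 0.078 for Lss and 0.084 for Fdps without WT replicate 1. Idi1 was at 0.51 without WT replicate 1 and at 0.15 without WT replicate 3. Fdps was at 0.090 without Pcm1-/- replicate 2, and without WT replicate 2 Fdps and Lss were both at 0.30.

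**Figure D2:**
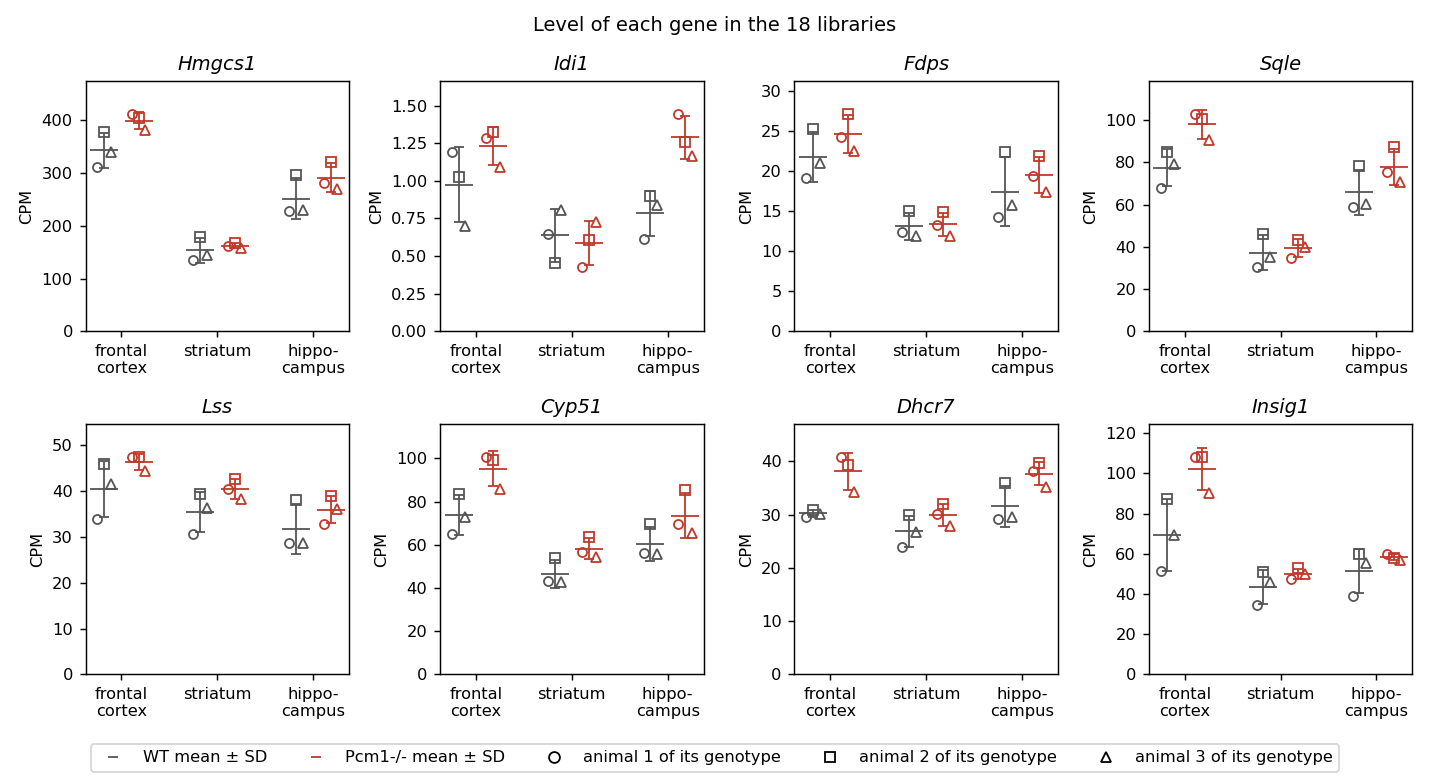
Level (CPM) of each of the 8 genes in the 18 libraries, by region and genotype, with bars for the mean ± SD of 3 libraries and symbols for the animals. In the frontal cortex the Pcm1-/- symbols of Hmgcs1, Sqle, Cyp51, Dhcr7 and Insig1 lie above all WT symbols, and the square of WT animal 2 is usually the highest of WT.

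In the striatum the log2 fold change was above 0 for 7 of 8 genes, against 49.1% of all genes, and 0 of 8 passed the adjusted test, which 0.0285% of genes passed. Cyp51 alone did not overlap between the genotypes (9.6% of all genes) and alone had an unadjusted p under 0.05 (6.54%). It was at 42.7, 43.2 and 54.1 CPM in WT and at 56.8, 63.8 and 54.2 CPM in Pcm1-/-, so the highest WT library all but touched the lowest Pcm1-/- library. Its log2 fold change was 0.32 (SE 0.107, adjusted p = 0.262).

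Among the other striatal values, Lss was at 36.3, 30.6 and 39.4 CPM in WT and at 40.4, 42.6 and 38.3 CPM in Pcm1-/-, with a log2 fold change of 0.20 (SE 0.0982). Insig1 was at 45.9, 34.3 and 50.8 CPM in WT and at 47.4, 52.7 and 49.8 CPM in Pcm1-/-, with a log2 fold change of 0.20 (SE 0.132). Dhcr7 was at 26.7, 24.0 and 29.8 CPM in WT and at 30.1, 31.9 and 27.8 CPM in Pcm1-/-, with a log2 fold change of 0.16 (SE 0.0969). In these 3 genes WT replicate 2 was the low library and the groups overlapped. Without it Insig1 stood at 0.051, Lss at 0.10 and Dhcr7 at 0.086 on the log2 scale. Without WT replicate 3, the highest WT library for these genes, they stood at 0.32, 0.28 and 0.24.

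Hmgcs1 was at 145, 135 and 179 CPM in WT and at 162, 168 and 158 CPM in Pcm1-/-, and the highest library was a WT one (log2 fold change 0.09, SE 0.101, and 0.0052 without WT replicate 2 or 0.21 without WT replicate 3). Sqle was at 35.2, 30.2 and 46.3 CPM in WT and at 34.7, 43.1 and 39.9 CPM in Pcm1-/- (log2 fold change 0.08, SE 0.153). Fdps was at 11.9, 12.4 and 14.9 CPM in WT and at 13.2, 14.8 and 11.9 CPM in Pcm1-/- (log2 fold change 0.03, SE 0.124). In these 3 genes the highest library of all was WT replicate 3. Idi1 was at 0.809, 0.648 and 0.454 CPM in WT and at 0.429, 0.605 and 0.723 CPM in Pcm1-/-, the only gene with a lower fitted level (log2 fold change -0.11, SE 0.330). A fit of all 18 libraries with lane turned the sign of Hmgcs1, Sqle and Fdps in the striatum, to -0.05, -0.08 and -0.13. It put Cyp51 at 0.16 (adjusted p = 0.650) and Dhcr7 at 0.03, and 0 of 8 genes then had an unadjusted p under 0.05 (6.22% of all genes, higher in Pcm1-/-). Without WT replicate 3, the library with the choroid plexus counts, 6 of 8 genes had an unadjusted p under 0.05, against 6.67% of all genes higher in Pcm1-/- in that fit, and again 0 passed the adjusted test. Without WT replicate 1, WT replicate 2 or Pcm1-/- replicate 2, 0 of 8 had an unadjusted p under 0.05, against 7.75%, 5.03% and 6.79% of all genes.

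In the hippocampus all 8 genes were higher on average in Pcm1-/- (49.8% of all genes had a log2 fold change above 0), and 0 of 8 passed the adjusted test (0.0171% of genes). Idi1 and Dhcr7 had an unadjusted p under 0.05 (4.84% of genes, higher in Pcm1-/-), and Idi1 alone did not overlap (10.6%). Idi1 was at 0.616, 0.899 and 0.840 CPM in WT, from 16, 24 and 25 counts, and at 1.45, 1.26 and 1.17 CPM in Pcm1-/-, from 44, 30 and 39 counts. Its log2 fold change was 0.69 (SE 0.256, adjusted p = 0.455). Dhcr7 was at 29.2, 35.96 and 29.5 CPM in WT and at 38.2, 39.6 and 35.2 CPM in Pcm1-/-, a log2 fold change of 0.24 (SE 0.0988, adjusted p = 0.493). WT replicate 2 lay above the lowest Pcm1-/- library.

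Cyp51 was at 56.0, 69.5 and 55.6 CPM in WT and at 69.6, 85.2 and 65.5 CPM in Pcm1-/- hippocampus (log2 fold change 0.26, SE 0.122). Sqle was at 58.9, 78.1 and 60.2 CPM in WT and at 75.4, 87.3 and 70.4 CPM in Pcm1-/- (0.22, SE 0.125). Hmgcs1 was at 228, 297 and 230 CPM in WT and at 280.5, 322 and 270.4 CPM in Pcm1-/- (0.19, SE 0.119). In all 3 genes replicate 2 was the highest library of its genotype. Insig1 was at 38.9, 60.01 and 55.3 CPM in WT and at 59.8, 58.1 and 57.0 CPM in Pcm1-/- (0.16, SE 0.147). Lss was at 28.6, 38.0 and 28.7 CPM in WT and at 32.9, 38.9 and 36.1 CPM in Pcm1-/- (0.16, SE 0.125). Fdps was at 14.2, 22.3 and 15.7 CPM in WT and at 19.4, 21.9 and 17.3 CPM in Pcm1-/- (0.15, SE 0.173). For Insig1 and Fdps the highest library was a WT one. Without WT replicate 1, Insig1 stood at 1.01e-05 and Fdps at 0.023 on the log2 scale, and Fdps was at 0.072 without WT replicate 3. Without Pcm1-/- replicate 2, Fdps stood at 0.067, Hmgcs1 at 0.12, Sqle at 0.14 and Cyp51 at 0.15. Lss stood at 0.094 without WT replicate 1 and at 0.086 without WT replicate 3, and Hmgcs1 at 0.13 and 0.12. Without WT replicate 2, 7 of 8 genes had an unadjusted p under 0.05, against 6.69% of all genes higher in Pcm1-/- in that fit, and Fdps stood at 0.36, Lss at 0.30, Insig1 at 0.28, Hmgcs1 at 0.32 and Sqle at 0.36. Without WT replicate 1 or without Pcm1-/- replicate 1, 0 of 8 did, against 3.19% and 2.08%. It was 1 of 8 without WT replicate 3 or without Pcm1-/- replicate 2, against 4.26% and 4%. In none of these fits did a member pass the adjusted test. With lane as a term within the hippocampus 5 of 8 had an unadjusted p under 0.05 (5.81% of all genes) and 0 passed, with Fdps at 0.34, Insig1 at 0.33, Lss at 0.31, Hmgcs1 at 0.31 and Sqle at 0.34. Lane 4 held WT replicate 2 alone in this region, so the term sets that library aside, much as leaving it out does. With lane in the fit of all 18 libraries it was 7 of 8 (10.6% of all genes), and 0 passed.

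**Figure D3:**
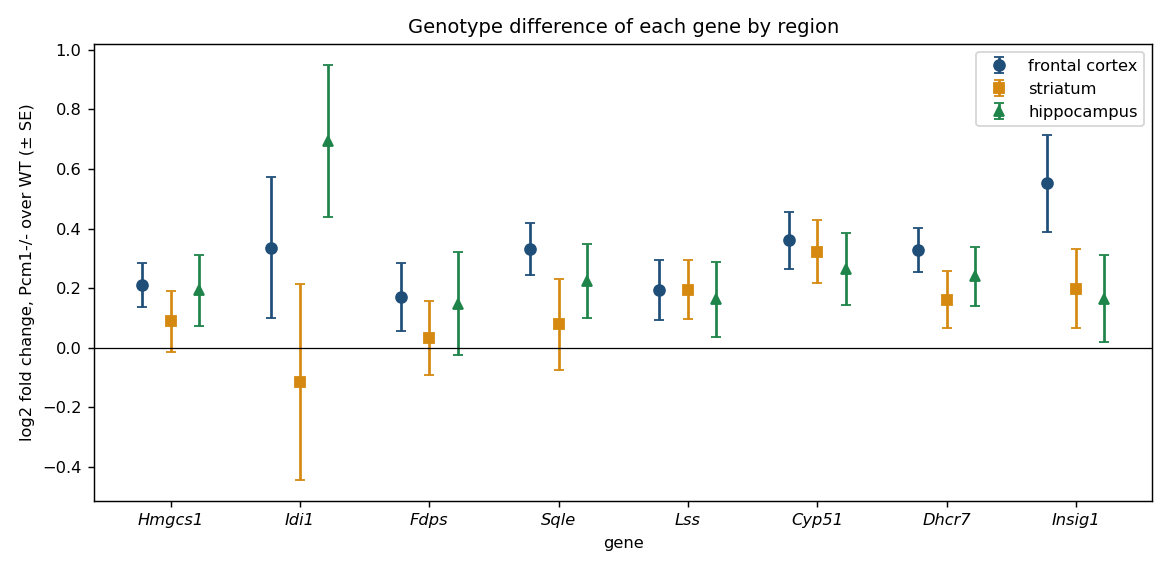
Log2 fold change of Pcm1-/- over WT for each gene, with its standard error, in the 3 regions (3 libraries per group). All values but that of Idi1 in the striatum lie above 0, and none passed the adjusted test.

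The size of the genotype difference was not shown to differ between regions. In the fit of all 18 libraries, 0 of 8 genes passed the test of genotype by region, which 0.0114% of genes passed, and their unadjusted p-values ran from 0.126 to 0.993. This fit took the libraries as separate although the regions share animals, and it was not run with the animal as a block. The most different pair was Idi1 in striatum against hippocampus, at -0.83 on the log2 scale (SE 0.381, unadjusted p = 0.0448, adjusted p = 1.00). Insig1 differed by -0.36 (SE 0.248) between striatum and frontal cortex and by -0.38 (SE 0.248) between hippocampus and frontal cortex. These intervals are wide, and a difference between regions as large as the frontal cortex effect of most of the genes lies within them.

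The level of these genes was also read by animal. Each library was given the mean log2 CPM of the 8 genes minus the mean of its region. Over the 3 regions, this mean was -0.28 in WT animal 1, 0.07 in WT animal 2 and -0.15 in WT animal 3. It was 0.11 in Pcm1-/- animal 1, 0.21 in Pcm1-/- animal 2 and 0.04 in Pcm1-/- animal 3. WT animal 2 thus lay within the Pcm1-/- range, and the other WT animals lay below it. WT animal 2 was the highest WT animal for 7 of 8 genes in the frontal cortex, 7 of 8 in the striatum and 8 of 8 in the hippocampus. Pcm1-/- animal 2 was the highest Pcm1-/- animal for 3, 7 and 6 of 8. These are the 2 animals with Y-linked counts. Averaged over regions, Idi1 and Dhcr7 were the genes whose 3 Pcm1-/- animals all lay above the 3 WT animals, 2 of 8 against 13.6% of all genes.

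With both of these animals left out, 2 libraries against 2, all 8 genes remained higher in Pcm1-/- frontal cortex and hippocampus, and 7 of 8 in striatum. An unadjusted p under 0.05 was then reached by 6 of 8 in frontal cortex, 3 in striatum and 6 in hippocampus, against 5.89%, 7.69% and 5.84% of all genes higher in Pcm1-/-, and 0 passed the adjusted test in any region. Insig1 in the frontal cortex stood at 0.72 in that fit and Cyp51 at 0.44. This comparison was chosen after the values were seen, and the part of sex in the levels was not tested.

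**Figure D4:**
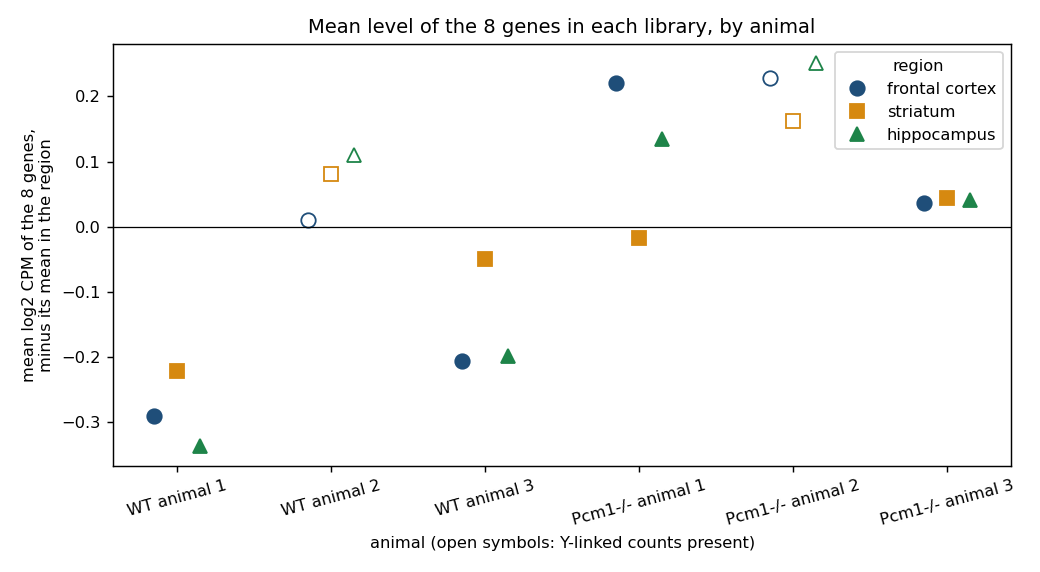
Mean log2 CPM of the 8 genes in each library minus the mean of its region, by animal and region, with open symbols for animals with Y-linked counts. WT animals 1 and 3 lie below 0 in all 3 regions, WT animal 2 and Pcm1-/- animals 2 and 3 lie above 0 in all 3, and Pcm1-/- animal 1 lies above 0 except in the striatum.

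The genes other than Idi1 rose and fell together across libraries. On log2 CPM centred within region, Pearson's r between pairs of genes other than Idi1 ran from 0.717 to 0.954 over the 18 libraries (21 pairs, median 0.840). Pairs with Idi1 had r from 0.190 to 0.435. Centring within each of the 6 groups, which removes genotype, left the pairs without Idi1 at 0.649 to 0.936 and put those with Idi1 at -0.147 to 0.101. The 18 libraries share 6 animals and are not independent, so these values are descriptions.

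Among the 12863 genes whose log2 CPM averaged 1 or more, those most like the mean of the 8 genes were Msmo1 (r = 0.955), Sc5d (0.940), Mvd (0.939), Zfp239 (0.921) and Ddx1 (0.916). The first 3 are enzymes of the same pathway, a C4 methyl sterol oxidase, a sterol desaturase and mevalonate diphosphate decarboxylase. Of 14 other enzymes of the pathway, Hsd17b7 had r = 0.881 and Fdft1 0.786, while Pmvk and Lbr were at 0.096 and -0.009. The sterol carrier Stard4 had r = 0.865 and Srebf2 0.748, while Srebf1, the gene of the SREBP that favours fatty acid synthesis, was at -0.557. The mean of the 14 other enzymes had r = 0.981 with that of the 8 genes, and the mean of 10 genes of sterol export and esterification under the nuclear receptor LXR had r = -0.814. Marker lists of glia and vessels had negative values as well, given at the end.

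The rest of the pathway was read from lists that were not chosen by direction, though with earlier results known. Of the 14 other mevalonate and sterol enzymes, 14 had a higher mean in Pcm1-/- frontal cortex, 12 in striatum and 11 in hippocampus, with median log2 fold changes of 0.24, 0.11 and 0.16. The medians of the 8 genes were 0.33, 0.12 and 0.21, and those of all tested genes lay between -0.007 and 0.000. In the frontal cortex 1 of the 14 passed the adjusted test: Msmo1 rose from 101.9 to 137.9 CPM (log2 fold change 0.43, SE 0.0768, adjusted p = 0.0363). Fdft1, squalene synthase, was at 65.8 and 75.8 CPM in the WT and Pcm1-/- frontal cortex (adjusted p = 0.401).

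Among 11 genes of the SREBPs and their regulators, 10 had a higher mean in Pcm1-/- frontal cortex, 9 in striatum and 9 in hippocampus. Insig2, the partner of Insig1 in holding SCAP, passed the adjusted test in the frontal cortex and rose from 44.6 to 53.6 CPM (log2 fold change 0.26, SE 0.0516, adjusted p = 0.0475). Srebf2 was at 292 and 321 CPM in the WT and Pcm1-/- frontal cortex (log2 fold change 0.13, adjusted p = 0.311), without overlap in any of the 3 regions. Srebf1 was at 54.9 and 51.0 CPM, a log2 fold change of -0.11 (adjusted p = 0.670).

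Sterol uptake and other SREBP-2 targets were mixed: 6 of 8 had a higher mean in Pcm1-/- frontal cortex, 4 in striatum and 3 in hippocampus. Of 14 genes of fatty acid synthesis, 9 were higher in the frontal cortex and 3 in each of the striatum and hippocampus, with 0 past the adjusted test. Fasn, fatty acid synthase, was at 325 and 330 CPM in the frontal cortex, and the desaturase Scd1 at 224 and 245 CPM. Of 10 genes of sterol export and esterification, 5 were higher in the frontal cortex and 3 in each of the other regions, and 0 passed. Apoe, which carries astrocyte cholesterol, was at 1084 and 912 CPM in WT and Pcm1-/- frontal cortex (log2 fold change -0.26, adjusted p = 0.190), without overlap in any region. Cyp46a1, the neuronal enzyme that clears brain cholesterol, was at 215 and 232 CPM there (adjusted p = 0.410).

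Markers of other cell types were read beside these values. All 10 myelin and oligodendrocyte markers had a lower mean in Pcm1-/- in each region, and their summed level in the frontal cortex was 2038 to 2707 CPM in WT and 1828 to 1940 CPM in Pcm1-/-. In the striatum it was 9808 to 9990 CPM against 5947 to 9628 CPM, and in the hippocampus 5179 to 10273 CPM against 3908 to 6411 CPM. All 7 microglial markers were lower in each region as well, with sums of 390 to 510 CPM against 339 to 386 CPM in the frontal cortex. Of 9 astrocyte markers, 4 were higher in the frontal cortex, 2 in striatum and 3 in hippocampus, and their sums overlapped in each region (in frontal cortex 6667 to 7620 CPM against 6863 to 7113 CPM). No marker of these 3 lists was under 0.1 CPM in all 6 libraries of a region, and 0 passed the adjusted test. Of 8 endothelial and mural markers, 7 were lower in Pcm1-/- frontal cortex, 6 in striatum and 8 in hippocampus, and Acta2 passed the test in the frontal cortex. Their sums were 292 to 389 CPM in WT and 276 to 287 CPM in Pcm1-/- frontal cortex, without overlap. Of 8 markers of striatal neurons, 6 were higher in Pcm1-/- frontal cortex, where Drd1 and Penk passed, 8 in striatum and 3 in hippocampus. Their sums did not overlap in the frontal cortex, at 205 to 227 CPM in WT against 260 to 291 CPM, or in the striatum, at 6985 to 8033 CPM against 8318 to 8951 CPM. Of 6 markers of cortical excitatory neurons, 3 were lower in Pcm1-/- frontal cortex, 6 in striatum and 2 in hippocampus, with overlapping sums in each region. Their mean in WT striatum replicate 1 stood 0.93 above the regional mean on the log2 scale, and the other striatal libraries ran from -0.40 to 0.03. Of 8 pan-neuronal markers, 4 were higher in frontal cortex, where Syt1 passed, 3 in striatum and 4 in hippocampus, again with overlapping sums. Of 5 oligodendrocyte precursor markers, 5 were lower in Pcm1-/- frontal cortex, 4 in striatum and 3 in hippocampus. Of 6 choroid plexus markers, 5, 6 and 6 were lower in these regions, while of 5 ependymal markers 3, 5 and 3 were higher. In these lists 0 passed the adjusted test. Acta2, Drd1, Penk and Syt1 were named after their values were seen. The part of these markers in the levels of the sterol genes was not tested. In bulk tissue, fewer cells of a type and less RNA per cell cannot be told apart.

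The regions themselves were compared within each genotype. In WT, 5 of 8 genes were lower in striatum than in frontal cortex (20.9% of genes were), led by Hmgcs1 at -1.16 (SE 0.138, adjusted p = 8.08e-05) and Sqle at -1.05 (SE 0.165, adjusted p = 0.000533) on the log2 scale. Fdps at -0.73, Insig1 at -0.66 and Cyp51 at -0.66 were the others. Dhcr7 and Lss differed by -0.17 (SE 0.108) and -0.19 (SE 0.150). In the hippocampus 1 of 8, Hmgcs1, was lower than in the frontal cortex (15.3% of genes), at -0.45 (SE 0.136, adjusted p = 0.0302), and Hmgcs1 and Sqle were lower in striatum than in hippocampus (14.8%), at -0.71 and -0.81.

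With the animal as a block, since the regions share animals, WT counts became 5, 6 and 6 of 8 in these 3 comparisons, while 23.7%, 19.1% and 17.2% of all genes were lower. Sqle, Insig1, Fdps, Lss and Cyp51 then joined Hmgcs1 below the frontal cortex in the hippocampus, and Insig1, Fdps, Cyp51 and Dhcr7 joined Hmgcs1 and Sqle in the striatum below the hippocampus. Without the block, the hippocampus count was 4 without WT hippocampus replicate 2 and 0 without WT frontal cortex replicate 2 or 3 or WT hippocampus replicate 1 or 3. Of all genes, 15.2% were lower in the first of these fits and 11.2%, 12.7%, 12.5% and 12.7% in the others.

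The Pcm1-/- libraries, which the WT fit did not use, gave a like order. Lower in striatum than in frontal cortex were 8 of 8 genes (27.1% of genes), lower in hippocampus than in frontal cortex 6 of 8 (21.2%), and lower in striatum than in hippocampus 7 of 8 (23.1%). The count of 6 fell to 3 without frontal cortex replicate 1, frontal cortex replicate 2 or hippocampus replicate 1, and to 4 without hippocampus replicate 3, while 17%, 17.8%, 17.8% and 18.6% of all genes were lower in these fits. Sqle and Hmgcs1 again led in striatum against frontal cortex, at -1.31 (SE 0.0994) and -1.29 (SE 0.0758). Insig1 was at -1.03 and Idi1 at -1.07, while Lss was at -0.19 (adjusted p = 0.0428). Dhcr7 was at 38.1 ± 3.44 CPM in Pcm1-/- frontal cortex and 37.7 ± 2.22 CPM in hippocampus (SD, n = 3), a log2 difference of -0.02 (SE 0.0821). Lss was the gene with a higher mean in striatum than in hippocampus in both genotypes, at 0.16 in WT and 0.18 in Pcm1-/- (adjusted p = 0.470 and 0.0650, and 0.0417 in Pcm1-/- with the animal as a block). The larger counts of calls in Pcm1-/- do not by themselves show a larger difference between regions there. No gene of the 8 passed the test of genotype by region, which was fitted without the animal as a block.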

How the data were processed

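The data are RNA sequencing counts from 18 libraries, 3 per genotype in each of 3 brain regions. The authors prepared stranded mRNA libraries, trimmed reads with Trim Galore and cutadapt, used STAR for alignment to GRCm38, discarded reads mapping to several positions and tallied the remainder per gene with HTSeq; the deposited values are raw counts, 1 library per file. Tool versions and the strand setting are not given in the sources used here. Symbols, positions and exon lengths came from GENCODE M21, which matched 36639 of 38561 gene identifiers.

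Every gene that reached 10 counts in 1 or more libraries was tested with edgeR 4.0.16 (R 4.3.3; TMM factors, quasi-likelihood test) within each region for the genotypes, over all libraries for the interaction and within each genotype for the regions. P-values were Benjamini-Hochberg adjusted over all 17545 genes and called under 0.05. They measure the spread between these libraries. CPM used TMM factors over all 18 libraries, and log2 CPM a prior count of 2. DESeq2 1.42.0, other filters and scalings, lane terms, blocks and omitted libraries were alternatives. Figures used matplotlib 3.10.9.

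The 8 genes were named by list; other genes were named if they passed the adjusted test in the sterol and lipid lists, or as fixed examples, or as the 5 most alike genes; some genes of these lists are not reported here by name. The members and lists were chosen with earlier results of these data known. Lanes came from the labels and animal numbers from the names of the deposited tables. Deviations from group means correlated more between regions of the same animal (mean r from 0.124 to 0.338) than between animals (-0.169 to -0.0607). Promoters were from RefSeq.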

Additional observations from a re-analysis of the deposited data

How the results depend on the processing

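Over the alternatives for the genotype comparisons, 332 fitted values of single members kept their direction and side of the threshold, 11 passed it where the reported fit did not, and 9 turned sign, all in the striatum. With DESeq2's Wald test 4 of 8 members passed in the frontal cortex, without a count minimum 4, and 0 in the other regions. Over all genes, the reported 306, 5 and 3 calls in frontal cortex, striatum and hippocampus became 646, 399 and 191 with DESeq2, 544 and 65 without a count minimum in the first 2 regions, and 176, 54 and 205 in a fit of all 18 libraries. With lane in that fit they were 95, 8 and 160. Lane within the region gave 29 in the frontal cortex and could not be fitted in the striatum. Leaving out the libraries with Y-linked counts gave 1, 36 and 1. The interaction's 2 calls became 0 with lane, 0 with DESeq2 size factors and 74 with DESeq2's likelihood ratio test, none of them a member. The causes of these shifts were not tested.

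WT and Pcm1-/- use the same replicate numbers, and whether these mark pairs was not tested. Same-numbered libraries correlated at 0.043 to 0.260 in frontal cortex, -0.269 to 0.178 in striatum and 0.096 to 0.507 in hippocampus. In the striatum, the WT replicate numbers follow another order of animals. Matched by animal number, r there was 0.063, 0.388 and 0.229. Pairs with differing animal numbers reached 0.178 in striatum, 0.040 in frontal cortex and 0.232 in hippocampus. Blocking on the replicate number, 3 members passed in the frontal cortex (Insig1, Cyp51 and Dhcr7) and 665, 3 and 9 genes were called in the 3 regions. In the striatum this block joined libraries whose animal numbers differ. With the animal as a block for regions, 6 members passed in WT hippocampus against frontal cortex and 6 in WT striatum against hippocampus; of single members' other calls the block changed that of Lss in Pcm1-/- striatum against hippocampus.

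Signs turned in the striatum with lane for Hmgcs1 (-0.046), Sqle (-0.077) and Fdps (-0.125). Leaving out a library in turn gave -0.051 to 0.263 for Sqle, -0.312 to 0.092 for Idi1 and -0.056 to 0.137 for Fdps there. It gave -0.045 to 0.118 for Dhcr7 in WT hippocampus against frontal cortex, and in Pcm1-/- -0.035 to 0.129 for Idi1 and -0.092 to 0.029 for Dhcr7. Genes called ranged from 11 to 825 in the frontal cortex, 2 to 5 in the striatum, 1 to 11 in the hippocampus and 0 to 22 for the interaction, with 0 members in each. Members called ranged from 0 to 4 in WT and 3 to 6 in Pcm1-/- for hippocampus against frontal cortex. Fits without a library leave 2 against 3, and intervals cover these libraries only. Depth limits Idi1 most, with 12 to 44 counts.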

Other observations

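Branches that leave the sterol pathway were read in the same way. Of 9 genes of the isoprenoid branches (farnesylation, geranylgeranyl, dolichol and coenzyme Q synthesis), 6 had a higher mean in Pcm1-/- frontal cortex, 5 in striatum and 6 in hippocampus, with median log2 fold changes of 0.03, 0.02 and 0.06. Of 6 oxysterol enzymes, 2 were higher in each region, with medians of -0.17, -0.24 and -0.41. Cyp7b1, an oxysterol hydroxylase named after its values were seen, was higher in Pcm1-/- without overlap in each region, at log2 fold changes of 0.27, 0.38 and 0.44. Across the 18 libraries the mean of the isoprenoid list had r = 0.551 with that of the 8 sterol genes, and the mean of the oxysterol list r = -0.760, as a description. None of these genes passed edgeR's adjusted test, and at an unadjusted p under 0.05 the oxysterol list had 1 higher and 1 lower gene in frontal cortex, 2 and 3 in striatum, and 1 and 2 in hippocampus.

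Haemoglobin and other genes of residual blood were lower in Pcm1-/- in 5 of 5 cases in each region, at 109 to 175 CPM in sum in WT frontal cortex and 35.8 to 79.0 CPM in Pcm1-/-. Immediate early genes of neuronal activity were higher in 5 of 7 cases in the frontal cortex and in 7 of 7 in striatum and hippocampus. Across the 18 libraries, the mean of the 8 sterol genes had r = -0.329 with that of residual blood, 0.394 with that of immediate early genes and -0.839 with that of microglial markers. Other glial and vascular lists were negative too: -0.760 for oligodendrocyte precursor, -0.699 for endothelial and mural, -0.644 for myelin and -0.597 for astrocyte markers. Pan-neuronal markers had r = 0.334. These are descriptions over libraries that share animals.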
